A study of Homo sapiens with 18 samples.

Results

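The genes of fatty acid oxidation described here are PPARA, CPT1A, CPT2, ACADM, ACADVL, HADHA, EHHADH and ANGPTL4. They were chosen by name, as genes of a known pathway, but with earlier results of these data known. Every array probe whose RefSeq accession matches one of them was taken. They comprised 8 of the 19720 genes that could be named on the array, read by 9 of its 42405 probes, with 2 probes for PPARA and 1 for each of the others. All 9 probes were well above background on all 18 arrays, so none was lost to a filter. The set holds the oxidation pathway, its regulator and a regulated target, but no enzyme of ketone body metabolism. Genes of that kind are therefore described from a separate list.

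Hepatocytes burn long-chain fatty acids mainly in mitochondria. The acids enter as carnitine esters made by CPT1A on the outer membrane and turned back into acyl-CoA by CPT2 on the inner membrane, and beta-oxidation then shortens them by repeated cycles of dehydrogenation, hydration, dehydrogenation and thiolysis. ACADVL and ACADM are the dehydrogenases for very long and medium chains, HADHA is the alpha subunit of the mitochondrial trifunctional protein, and EHHADH is the bifunctional enzyme of the peroxisomal pathway. PPARA is the fatty acid-activated nuclear receptor that drives these genes in the fasting liver together with secreted products such as ANGPTL4, an inhibitor of lipoprotein lipase, while acetyl-CoA from oxidation feeds ketone body synthesis.

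The study compared disulfiram (DSF), an aldehyde dehydrogenase inhibitor used against alcohol dependence, with the antimetabolite 5-fluorouracil (5-FU) in tumor-initiating cells of hepatocellular carcinoma (HCC). Huh1 and Huh7, both established human HCC lines, were each cultured for 48 h with 0.1 µM DSF, with 1 µM 5-FU or as control without either drug. The methods list DSF as given together with copper chloride, and whether control or 5-FU cells received copper is not given in the sources used here. Cells positive for the surface marker EpCAM were isolated by flow cytometry, so every group, controls included, consists of sorted EpCAM+ cells. The paper describes the arrays as of EpCAM+ cells treated for 48 h, and does not state whether sorting came before or after the drug. RNA of 3 replicates per group was labelled with a single dye and hybridised to 18 Agilent arrays. Per the methods the replicates came from independent experiments. A p-value here rests on the spread between cultures within a group, pooled over all groups of both lines. It does not measure the spread between cell lines. In the DSF groups this spread includes the slide, since their arrays lay on different slides. Because each RNA came from many cells, less RNA per cell and fewer cells that express a gene cannot be told apart.

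Signals are given as log2 normalised signal, that is the log2 of the scanner's processed spot intensity minus the 75th percentile of the same array. A value of 0 therefore means the signal of the 75th percentile probe, and levels are compared only within a probe. A gene was said to rise or fall where the adjusted p of the limma fit over all 29894 tested probes was under 0.05. Between 59.9% and 71.1% of probes per array were well above background, and arrays of a group correlated at 0.989 to 0.997. The 7 hepatoma markers EPCAM, KRT8, KRT18, AFP, ALB, GPC3 and APOA1 were well above background on all 18 arrays. Their summed linear normalised signal ranged from 762.9 to 821.3 in Huh1 controls, and was lower after DSF (612.2 to 662.9) and 5-FU (646.6 to 726.9). In Huh7 the controls ranged from 996.3 to 1023 and overlapped with DSF (909.2 to 1032) and 5-FU (939.6 to 1086). Of 7 markers of leukocytes, macrophages, endothelium and fibroblasts, each group had 4 to 6 that its 3 arrays all detected above background. Their summed linear normalised signal ranged from 3.60 to 6.28 in Huh1 controls, 4.53 to 4.89 after DSF and 6.38 to 6.97 after 5-FU, and from 1.78 to 1.80, 2.04 to 2.29 and 5.86 to 7.09 in Huh7. VWF was above background on none of the Huh1 control arrays, COL1A1 on none of the Huh1 5-FU arrays and DCN on none of the Huh7 control arrays. The summed signal of the 7 markers of other cell types was thus higher than in controls after 5-FU in both lines and after DSF in Huh7. That of hepatoma markers was lower with both drugs in Huh1, and the part of either in the results was not tested. All groups are cultured HCC lines, so these sums describe probe signals and do not count cells of other types.

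Arrays lay on 3 slides, each scanned in a session of its own. Slide 1 held the Huh1 control and 5-FU arrays with DSF replicates 1 and 2, slide 2 held Huh1 DSF replicate 3 with the Huh7 control and 5-FU arrays and DSF replicate 1, and slide 3 held Huh7 DSF replicates 2 and 3. Within a slide, Huh7 DSF is therefore a single array. The scaling matters for 5-FU. Relative to 6 spike-in probes, the 75th percentile lay at -4.09 and -3.96 (log2) in Huh1 control and DSF but at -3.26 after 5-FU, and at -4.02, -4.19 and -3.03 in Huh7. Scaled to the spike-in probes, the median change of all tested probes after 5-FU was 0.79 in Huh1 and 0.94 in Huh7. All changes after 5-FU below are thus relative to the other RNAs of the cell, and directions that turn under the spike-in scaling are named. Both scalings subtract a constant per array, so between them all genes of a comparison shift by the same amount. Directions that turn are therefore not separate results.

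Upstream windows of 4 genes are shown, that of ANGPTL4 for its opposite responses to DSF in the lines, those of PPARA and CPT1A because the first fell and the second rose with DSF in Huh1, and that of HADHA because it is shared with its partner subunit. The RefSeq table (GRCh38.p14) held windows for 7 of the 8 genes, of which the 250 bases before the annotated start are given 5′ to 3′. PPARA and ACADVL each had 2 windows, and for PPARA the first is shown. Capitals mark GGGCGG, the GC box, and TATAAA, the TATA box, searched on both strands.
ANGPTL4, chr19:8363905-8364154, plus strand: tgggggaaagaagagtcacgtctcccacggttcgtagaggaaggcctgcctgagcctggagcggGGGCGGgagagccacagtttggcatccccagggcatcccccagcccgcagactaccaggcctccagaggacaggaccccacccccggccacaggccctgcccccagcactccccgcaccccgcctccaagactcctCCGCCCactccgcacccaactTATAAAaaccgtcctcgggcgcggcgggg
PPARA, chr22:46150276-46150525, plus strand: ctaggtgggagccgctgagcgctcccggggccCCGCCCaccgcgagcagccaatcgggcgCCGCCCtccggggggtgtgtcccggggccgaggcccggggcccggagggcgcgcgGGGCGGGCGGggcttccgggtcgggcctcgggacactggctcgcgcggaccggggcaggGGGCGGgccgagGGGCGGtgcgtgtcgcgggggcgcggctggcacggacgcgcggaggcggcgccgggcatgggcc
CPT1A, chr11:68844278-68844527, minus strand: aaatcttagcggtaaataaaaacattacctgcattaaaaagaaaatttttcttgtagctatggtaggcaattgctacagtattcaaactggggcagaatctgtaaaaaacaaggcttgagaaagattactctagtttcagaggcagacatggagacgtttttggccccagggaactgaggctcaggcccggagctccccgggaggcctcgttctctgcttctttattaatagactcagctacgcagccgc
HADHA, chr2:26244633-26244882, minus strand: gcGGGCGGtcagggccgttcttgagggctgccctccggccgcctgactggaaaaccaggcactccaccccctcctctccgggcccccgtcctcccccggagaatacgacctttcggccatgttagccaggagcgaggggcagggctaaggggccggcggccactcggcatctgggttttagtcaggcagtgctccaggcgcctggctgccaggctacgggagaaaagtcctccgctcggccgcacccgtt
ANGPTL4 was the sole printed gene with TATAAA, whose first base lies 29 bases before the start, and it also held 2 GC boxes. Of all 35116 windows in the table, 42.6% held a GC box and 3763 held TATAAA. PPARA, with 84.4% G and C against a median of 58% over all windows, held 6 GC boxes, and 99.4% of windows had a lower share. Its second window, not shown, had 87.2% G and C and 9 GC boxes. CPT1A, with 44.4% G and C, held neither motif, and HADHA held 1 GC box. HADHA and HADHB, which encodes the beta subunit of the same protein, start head to head on chromosome 2 with 306 bases between their first bases, so the HADHA window lies within the stretch that separates them. AGGTCA, the half-site of nuclear receptors such as PPARA, was in none of these members' windows and in 12.1% of all windows, which says only that these letters are not in this stretch.

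With DSF, most of the 8 genes fell in each line while CPT1A rose in both and ANGPTL4 went opposite ways. In Huh1, 2 rose and 6 fell, where 44.2% of all probes passed the test in either direction. The median change was -0.48 (log2) for the 8 genes and 0.002 for all probes. In Huh7, 1 rose and 5 fell beside 46.7% of all probes, with a median of -0.39 against 0.08. With the slide as a block 0 rose and 3 fell in Huh7, and 8548 probes passed in place of 13975. After 5-FU, 1 rose and 4 fell in Huh1, where 48.2% of probes passed, and 2 rose and 6 fell in Huh7, where 57.1% did. Medians of the 8 were -0.27 (Huh1) and -0.31 (Huh7), against -0.03 and -0.05 for all probes. Scaled to the spike-in probes, the direction of these counts turned, since 7 of the 8 genes rose and 0 fell in Huh1 and 6 rose and 0 fell in Huh7. For DSF that scaling gave 2 up and 4 down in Huh1 and 0 up and 7 down in Huh7. Both drugs were compared with the same control arrays. In Huh1, 7154 of the 13220 probes that passed were higher after DSF, against 7081 of 9500 with spike-in scaling and 4750 of 14385 with each array centred on its median. For Huh7 and DSF the count was 8174 of 13975, and 3241 of 9364 with spike-in scaling. After 5-FU, 6642 of 14403 in Huh1 and 8173 of 17063 in Huh7 were higher, and 22339 of 22706 and 22962 of 23997 with spike-in scaling.

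**Figure D1:**
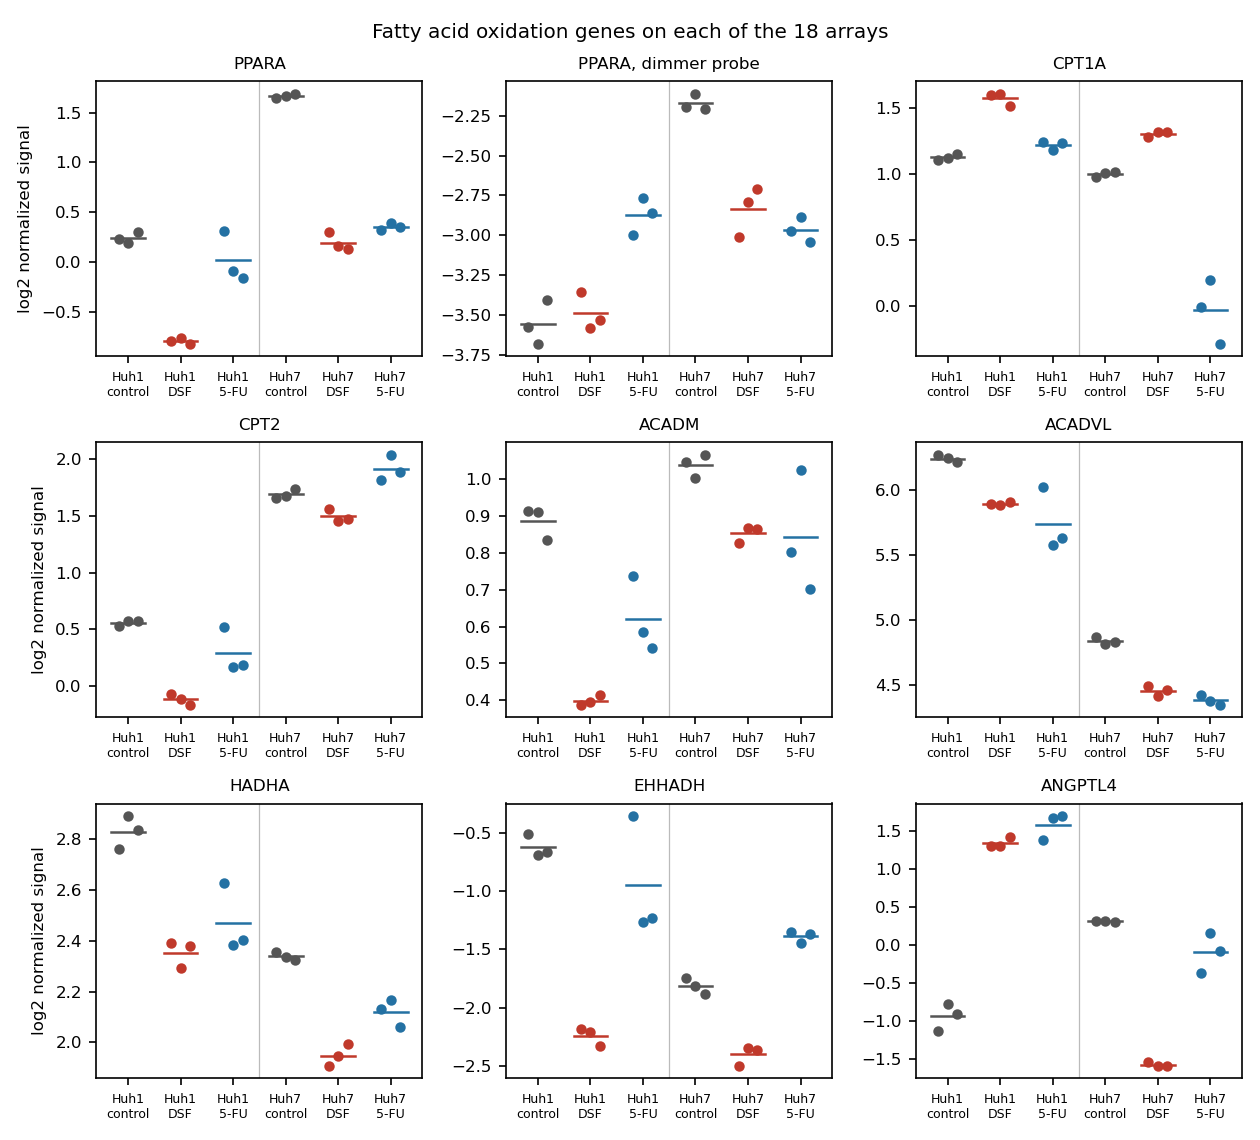
Log2 normalised signal (y axis) of each gene on each array, with the 6 groups on the x axis; points are arrays and horizontal bars are group means, all points are well above background, and PPARA has a panel for each of its probes. ANGPTL4 was up with both drugs in Huh1 and down in Huh7 (for 5-FU in Huh7 on this scaling only), and Huh1 5-FU replicate 1 lay above the other 2 arrays of its group for EHHADH, ACADVL, ACADM, CPT2, HADHA and the brighter PPARA probe but below them for the dimmer one.

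PPARA, the receptor at the head of the pathway, fell with DSF in both lines. Its brighter probe read 0.23, 0.19 and 0.30 in the 3 Huh1 control arrays, -0.80, -0.76 and -0.82 after DSF and 0.31, -0.09 and -0.16 after 5-FU. The Huh7 arrays read 1.64, 1.67 and 1.69 in controls, 0.30, 0.16 and 0.13 after DSF and 0.33, 0.39 and 0.35 after 5-FU. DSF arrays lay below all control arrays in both lines, and 5-FU arrays did so in Huh7. The log2 change with DSF in Huh1 was -1.03 (SE 0.096, n = 3 per group, adjusted p = 1.21e-06 by limma) and that in Huh7 -1.47 (adjusted p = 5.02e-08), which is 0.488 and 0.36 of the control level. With 5-FU PPARA fell by 1.31 in Huh7 (adjusted p = 4.5e-08) and changed by -0.22 in Huh1 (adjusted p = 0.0734), with a 95% interval from -0.43 to -0.01. Without Huh1 5-FU replicate 1, which lay above the controls, that change was -0.37 with an adjusted p of 2.48e-04. Scaled to the spike-in probes it turned to 0.60 in Huh1, and the Huh7 change was -0.33 and no longer passed (adjusted p = 0.0569).

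The dimmer PPARA probe disagreed with the brighter one in Huh1. There it read -3.58, -3.68 and -3.41 in controls, -3.35, -3.58 and -3.53 after DSF and -3.00, -2.77 and -2.86 after 5-FU. It thus changed by 0.07 with DSF (adjusted p = 0.608) and rose by 0.68 with 5-FU (adjusted p = 5.07e-05). The same probe in Huh7 read -2.20, -2.11 and -2.21 in controls, -3.01, -2.79 and -2.71 after DSF and -2.97, -2.89 and -3.04 after 5-FU. It fell there by 0.67 with DSF (adjusted p = 6.77e-05) and by 0.80 with 5-FU (adjusted p = 6.29e-06). Both probes are assigned to PPARA by RefSeq accession, and the fall of PPARA in Huh1 therefore rests on a single probe. The mean of both probes turned the 5-FU change in Huh1 to 0.23 (adjusted p = 0.00736).

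CPT1A and CPT2, the carnitine palmitoyltransferases on either side of the mitochondrial import step, took opposite directions with DSF in Huh1, where CPT1A rose and CPT2 fell, while in Huh7 CPT2 did not pass and the rise of CPT1A depended on slide and scaling. CPT1A, the rate-controlling step that malonyl-CoA inhibits, read 1.11, 1.13 and 1.15 in Huh1 controls, 1.60, 1.61 and 1.52 after DSF and 1.25, 1.18 and 1.24 after 5-FU. Huh7 values of CPT1A were 0.98, 1.01 and 1.02 in controls, 1.28, 1.32 and 1.32 after DSF and -0.005, 0.20 and -0.29 after 5-FU. All DSF arrays lay above the controls of their line, and all Huh7 5-FU arrays lay below. CPT1A rose with DSF by 0.45 (SE 0.089, adjusted p = 8.77e-04) in Huh1 and 0.31 (adjusted p = 0.0116) in Huh7, although with the slide as a block the Huh7 value was 0.28 and did not pass (adjusted p = 0.135), and within slide 2 the same value had an adjusted p of 0.166. With spike-in scaling the Huh7 change was 0.13 (adjusted p = 0.49). After 5-FU it fell by 1.03 in Huh7 (adjusted p = 2.16e-07) and changed by 0.09 in Huh1 (adjusted p = 0.406). The spike-in scaling brought the Huh7 fall to -0.05 (adjusted p = 0.759) and the Huh1 change to 0.92 (adjusted p = 2.07e-05). The 5-FU effect was lower in Huh7 than in Huh1 by 1.13 (adjusted p = 1.22e-05), and that of DSF differed by -0.14 (95% interval -0.41 to 0.13, adjusted p = 0.39).

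CPT2, which releases the acyl group inside the matrix, read 0.53, 0.57 and 0.57 in Huh1 controls, -0.07, -0.12 and -0.17 after DSF and 0.52, 0.17 and 0.19 after 5-FU. Huh7 values of CPT2 were 1.66, 1.68 and 1.74 in controls, 1.57, 1.46 and 1.48 after DSF and 1.82, 2.04 and 1.89 after 5-FU. DSF arrays were below the controls in both lines and 5-FU arrays were above them in Huh7. It fell with DSF in Huh1 by 0.67 (adjusted p = 2.04e-05), and the Huh7 change of -0.19 did not pass (adjusted p = 0.0805). The difference of the lines was 0.48 (SE 0.121, adjusted p = 0.00595), or 0.18 with spike-in scaling (adjusted p = 0.526). After 5-FU it fell by 0.27 in Huh1 (adjusted p = 0.0196) and rose by 0.23 in Huh7 (adjusted p = 0.0359), and the effects differed by 0.49 (adjusted p = 0.00561). Within slides the Huh7 rise did not pass (adjusted p = 0.0571). The Huh1 fall turned to a rise of 0.56 with spike-in scaling. The adjusted p exceeded 0.05 without any 1 of Huh1 5-FU replicates 2 and 3 or control replicates 2 and 3 (0.0512 to 0.0942), and in Huh7 without any control array or 5-FU replicates 2 or 3 (0.0501 to 0.148).

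**Figure D2:**
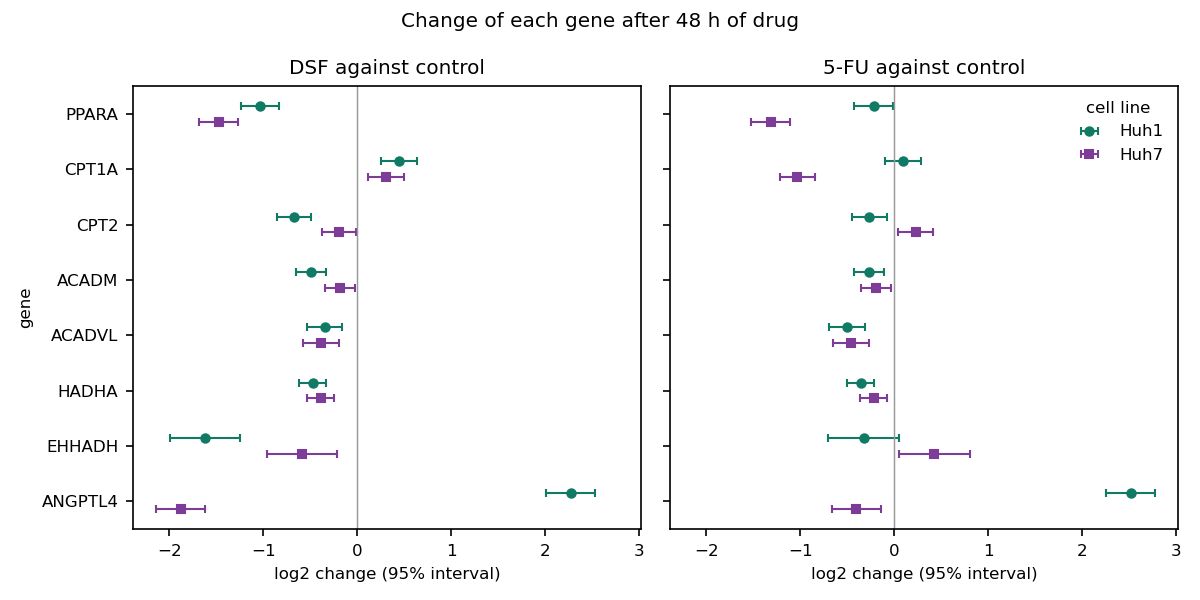
Log2 change against control (x axis) of each gene (y axis) after DSF (left) and 5-FU (right), in Huh1 (circles) and Huh7 (squares); bars are 95% intervals of the limma fit, n = 3 arrays per group. ANGPTL4 lies at 2.27 and 2.52 in Huh1 and at -1.88 and -0.41 in Huh7, while PPARA (brighter probe), ACADM, ACADVL and HADHA lie below 0 in all 4 comparisons. For 5-FU this holds with this scaling. With that on spike-in probes, PPARA in Huh7 alone among these 5-FU values stays below 0.

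The 3 mitochondrial enzymes shifted little and mostly downward. ACADM, the medium-chain acyl-CoA dehydrogenase, read 0.91, 0.91 and 0.83 in Huh1 controls, 0.39, 0.40 and 0.42 after DSF and 0.74, 0.59 and 0.54 after 5-FU. In Huh7 it read 1.05, 1.00 and 1.07 in controls, 0.83, 0.87 and 0.86 after DSF and 0.80, 1.02 and 0.70 after 5-FU. Groups did not overlap except for Huh7 5-FU, where replicate 2 lay among the controls. With DSF it fell by 0.49 in Huh1 (SE 0.074, adjusted p = 1.05e-04), and the Huh7 change of -0.19 did not pass (adjusted p = 0.055). The lines differed by 0.30 (adjusted p = 0.0343), a difference that became 0.28 with an adjusted p of 0.158 with the slide as a block, 0.28 and 0.192 within slides, and -0.006 with spike-in scaling. It did not pass without any 1 of Huh1 control replicates 1 and 2, Huh7 DSF replicates 2 and 3, or any Huh1 DSF or Huh7 control array (adjusted p = 0.0501 to 0.0745). After 5-FU it fell by 0.27 in Huh1 (adjusted p = 0.00905) and by 0.19 in Huh7 (adjusted p = 0.037). Both turned to rises with spike-in scaling, of 0.56 and 0.79, and the Huh7 fall did not pass within slides (adjusted p = 0.0645) or without any 1 control array or 5-FU replicate 1 or 3 (adjusted p = 0.0548 to 0.168).

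ACADVL, the very-long-chain dehydrogenase of the inner membrane, read 6.27, 6.25 and 6.22 in Huh1 controls, 5.89, 5.89 and 5.91 after DSF and 6.02, 5.58 and 5.63 after 5-FU. Huh7 arrays gave 4.87, 4.82 and 4.83 in controls, 4.49, 4.41 and 4.46 after DSF and 4.42, 4.38 and 4.34 after 5-FU. All arrays with either drug lay below the controls of their line. The falls with DSF were 0.35 and 0.39 on the log2 scale in Huh1 and Huh7 (SE 0.088, adjusted p = 0.00526 and 0.00263 by limma). With 5-FU they were 0.50 and 0.46 (adjusted p = 3.15e-04 and 4.42e-04). The effects in the lines differed by -0.04 for DSF (95% interval -0.31 to 0.23) and 0.04 for 5-FU (-0.23 to 0.31). With spike-in scaling the 5-FU changes turned to 0.32 and 0.53 and the DSF change in Huh1 was -0.21 (adjusted p = 0.302). Blocked on slide, the DSF change in Huh7 was -0.35 and did not pass (adjusted p = 0.0704, and 0.0922 within slide 2).

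HADHA, which carries the hydratase and long-chain hydroxyacyl-CoA dehydrogenase activities, read 2.76, 2.89 and 2.83 in Huh1 controls, 2.39, 2.29 and 2.38 after DSF and 2.63, 2.38 and 2.40 after 5-FU. For HADHA in Huh7 the arrays read 2.36, 2.34 and 2.32 in controls, 1.91, 1.95 and 1.99 after DSF and 2.13, 2.17 and 2.06 after 5-FU. All drug arrays lay below the controls here too. HADHA fell with DSF by 0.47 in Huh1 (SE 0.067, adjusted p = 5.3e-05) and 0.39 in Huh7 (adjusted p = 2.99e-04). It fell with 5-FU by 0.36 (adjusted p = 5.28e-04) and 0.22 (adjusted p = 0.0118), which turned to rises of 0.47 and 0.77 with spike-in scaling. The Huh1 DSF change was -0.34 with that scaling and did not pass (adjusted p = 0.0519). HADHB, its head-to-head neighbour and partner subunit, was picked after its values were seen. It fell by 0.34 and 0.51 with DSF (adjusted p = 0.0128 and 9.43e-04) and by 0.34 and 0.30 with 5-FU (adjusted p = 0.0125 and 0.0219), in Huh1 and Huh7. Blocked on slide, its DSF change in Huh7 was -0.25 (adjusted p = 0.112), and its 5-FU changes turned to 0.49 and 0.69 with spike-in scaling. The HADHB fall with DSF in Huh1 did not pass without Huh1 control replicate 2 (adjusted p = 0.0503), that with 5-FU in Huh1 without 5-FU replicate 2 or 3 (0.053 and 0.0534), and that in Huh7 without control replicate 3 or 5-FU replicate 1 (0.0602 and 0.0745).

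EHHADH, the peroxisomal enzyme, fell with DSF more in Huh1 than in Huh7. It read -0.51, -0.69 and -0.66 in Huh1 controls, -2.19, -2.21 and -2.33 after DSF and -0.35, -1.26 and -1.23 after 5-FU. In Huh7 it read -1.75, -1.81 and -1.88 in controls, -2.50, -2.34 and -2.36 after DSF and -1.35, -1.44 and -1.37 after 5-FU. DSF arrays lay below the controls in both lines, and Huh7 5-FU arrays lay above them. In Huh1 the 5-FU replicate 1 was above all controls while the other 2 were below. The change with DSF was -1.62 in Huh1 (SE 0.174, adjusted p = 4.39e-06), or 0.325 of the control level, and -0.59 in Huh7 (adjusted p = 0.013). The lines differed by 1.03 (adjusted p = 0.00426). With the slide as a block the Huh7 value was -0.69 (adjusted p = 0.0689, and 0.0895 within slide 2) and the difference was 0.89 (adjusted p = 0.0642, and 0.0836 within slides). With 5-FU the change was -0.33 in Huh1 (adjusted p = 0.136), and without replicate 1 it was -0.63 (adjusted p = 1.73e-05). In Huh7 EHHADH rose by 0.43 (adjusted p = 0.0489), which did not pass without any 1 array of either group (adjusted p = 0.0717 to 0.119), with the slide as a block (0.0643) or within slides (0.0801). The 5-FU effects in the lines differed by 0.76 (adjusted p = 0.0264), which did not pass within slides (0.0513) or without 1 of Huh1 5-FU replicates 2 and 3, Huh1 control replicate 1 and Huh7 control replicate 3 (0.0558 to 0.0711). The change in Huh1 was 0.50 with spike-in scaling.

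ANGPTL4, the secreted target, gave the widest split between the lines of the 8 genes. In Huh1 it read -1.12, -0.77 and -0.90 in controls, 1.30, 1.30 and 1.41 after DSF and 1.38, 1.68 and 1.70 after 5-FU. In Huh7 it read 0.32, 0.32 and 0.30 in controls, -1.54, -1.58 and -1.58 after DSF and -0.37, 0.16 and -0.08 after 5-FU. Every drug array was above the controls in Huh1 and below them in Huh7. It rose with DSF in Huh1 by 2.27 (SE 0.122, adjusted p = 5.97e-09), which is 4.83 times the control level, and fell in Huh7 by 1.88 (adjusted p = 4.55e-08), to 0.272 of control. With 5-FU it rose in Huh1 by 2.52 (adjusted p = 7.63e-09), 5.72 times control, and fell in Huh7 by 0.41 (adjusted p = 0.0104). The Huh7 5-FU fall turned to a rise of 0.58 with spike-in scaling, and without Huh7 5-FU replicate 1 it was -0.27 (adjusted p = 0.0551). The lines differed by -4.15 for DSF (SE 0.172, adjusted p = 1.41e-09) and -2.92 for 5-FU (adjusted p = 6.1e-08).

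Set directly against each other, DSF and 5-FU arrays of 1 line differed for 5 of the 8 genes in each line. In Huh1 1 gene was higher and 4 were lower with DSF, where 49.2% of probes passed, and in Huh7 likewise 1 and 4, where 60.5% passed. Scaled to the spike-in probes, none was higher in either line, and DSF arrays were lower for 8 genes in Huh1 and for 7 in Huh7, where the 7 ranged from -1.09 for ACADVL to -2.63 for ANGPTL4. CPT1A was the gene that was higher, by 0.35 in Huh1 and 1.34 in Huh7 (adjusted p = 0.00444 and 1.88e-08). The Huh1 value turned to -0.34 and the Huh7 value fell to 0.18 (adjusted p = 0.227) with spike-in scaling. EHHADH was lower by 1.29 in Huh1 and 1.01 in Huh7 (adjusted p = 3.09e-05 and 1.65e-04), and CPT2 by 0.41 and 0.42 (adjusted p = 0.0012 and 7.42e-04). For CPT2 in Huh7 the difference within slide 2 was -0.35 (adjusted p = 0.0506). PPARA was lower with DSF in Huh1 by 0.81 (adjusted p = 9.72e-06), and in Huh7 the difference was -0.16 (95% interval -0.36 to 0.05, adjusted p = 0.171), or -1.32 with spike-in scaling (adjusted p = 8.92e-07). ANGPTL4 was lower with DSF in Huh7 by 1.47 (adjusted p = 1.61e-07), while in Huh1 the difference was -0.24 (95% interval -0.51 to 0.02, adjusted p = 0.112), or -0.94 with spike-in scaling (adjusted p = 7.3e-05). The 2 further genes that passed were ACADM in Huh1, lower by 0.22 (adjusted p = 0.0234, and 0.0657 within slides), and HADHA in Huh7, lower by 0.17 (adjusted p = 0.0397, and 0.101 with the slide as a block). The ACADM difference did not pass without any 1 of 5-FU replicate 1 and DSF replicates 1 and 2 (adjusted p = 0.0574 to 0.0966), and that of HADHA without any 1 of 5-FU replicates 1 and 2 and DSF replicates 1 and 2 (0.0769 to 0.115).

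The difference between the effects in the lines passed for 5 of the 8 genes with each drug. For DSF 3 were higher and 2 lower in Huh7 than in Huh1, where 40.3% of all probes passed, and for 5-FU 2 were higher and 3 lower, where 36.6% passed. PPARA fell further in Huh7 by 0.44 with DSF (adjusted p = 0.0198) and by 1.09 with 5-FU (adjusted p = 3.18e-05). The DSF difference was -0.35 with an adjusted p of 0.168 with the slide as a block and 0.2 within slides. The dimmer probe gave differences of -0.73 (adjusted p = 7.22e-04) and -1.48 (adjusted p = 2.46e-06). Under the slide block, where the Huh7 DSF value rests on a single array, 2 genes passed for DSF. Beside them 8695 of all tested probes passed, against 12051 without the block.

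The untreated lines already differed for 6 of the 8 genes, 3 higher and 3 lower in Huh7, where 70.7% of all probes passed. PPARA was higher in Huh7 by 1.43 (adjusted p = 4.61e-09), ANGPTL4 by 1.24 (adjusted p = 3.03e-07) and CPT2 by 1.13 (adjusted p = 1.67e-08). ACADVL was lower by 1.41 (adjusted p = 2.04e-09), EHHADH by 1.19 (adjusted p = 2.1e-05) and HADHA by 0.49 (adjusted p = 1.13e-05). ACADM and CPT1A differed by 0.15 (adjusted p = 0.0833) and -0.13 (adjusted p = 0.217). Controls of the lines lay on different slides, so no value within a slide exists. With the slide as a block, a value that rests on Huh1 DSF replicate 3 on slide 2, the differences were 1.47 for PPARA, 1.13 for ANGPTL4, 1.21 for CPT2, -1.43 for ACADVL, -1.06 for EHHADH and -0.53 for HADHA, and all 6 passed.

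A list of pathway genes was used for context, of which 67 could be tested and 59 are not among the 8. ACADL was listed but not tested, since no group had it above background on all arrays. With DSF, 8 of the 59 rose and 37 fell in Huh1, with a median of -0.47, and 11 rose and 27 fell in Huh7, with a median of -0.24. With 5-FU, 15 rose and 21 fell in Huh1 (median -0.15) and 18 rose and 25 fell in Huh7 (median -0.19). Beside these stand the shares of all probes that passed, 44.2% and 46.7% for DSF and 48.2% and 57.1% for 5-FU in Huh1 and Huh7. All counts after 5-FU hold for the 75th percentile scaling, since with spike-in scaling 39 of the 59 rose and 1 fell in Huh1 and 45 rose and 3 fell in Huh7. Of all probes that passed after 5-FU with spike-in scaling, 22339 of 22706 were higher in Huh1 and 22962 of 23997 in Huh7. The lists by part of the pathway that follow are drawn from all 67 tested genes, so they count the 8 genes again. Among 15 mitochondrial beta-oxidation genes, none rose and 14 fell with DSF in Huh1, and 2 rose and 8 fell in Huh7. With 5-FU none of them rose while 11 fell in Huh1 and 10 in Huh7, but with spike-in scaling 9 rose and 1 fell in Huh1 and 13 rose and 1 fell in Huh7. Of 12 peroxisomal genes, 8 fell and none rose with DSF in Huh1 and 7 fell and 1 rose in Huh7, whereas with 5-FU 3 rose and 6 fell in Huh1 and 7 rose and 3 fell in Huh7. For 8 genes of the carnitine shuttle the counts with DSF were 3 up and 5 down in Huh1 and 1 up and 2 down in Huh7, and with 5-FU 2 and 2 in Huh1 and 4 and 3 in Huh7. For 7 genes of fatty acid activation they were 1 and 4 in both lines with DSF and 3 and 0 in Huh1 and 2 and 3 in Huh7 with 5-FU. Among 12 regulators, 2 rose and 8 fell in Huh1 and 4 rose and 5 fell in Huh7 with DSF. With 5-FU 4 rose and 4 fell in Huh1 and 2 rose and 6 fell in Huh7. With spike-in scaling, 8 of the 59 rose and 22 fell with DSF in Huh1, and 3 rose and 28 fell in Huh7. Beside them 9500 and 9364 of all tested probes passed. Of the 15 mitochondrial genes 8 then fell in Huh1 and 9 in Huh7. Of the 12 peroxisomal genes 5 and 7 did, and none of either rose. The slide block moved the median DSF change in Huh7 from -0.30 to -0.25 (mitochondrial) and from -0.26 to -0.15 (peroxisomal). With the slide as a block 22 of the 59 passed for DSF in Huh7, 8 up and 14 down, beside 8548 of all tested probes.

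**Figure D3:**
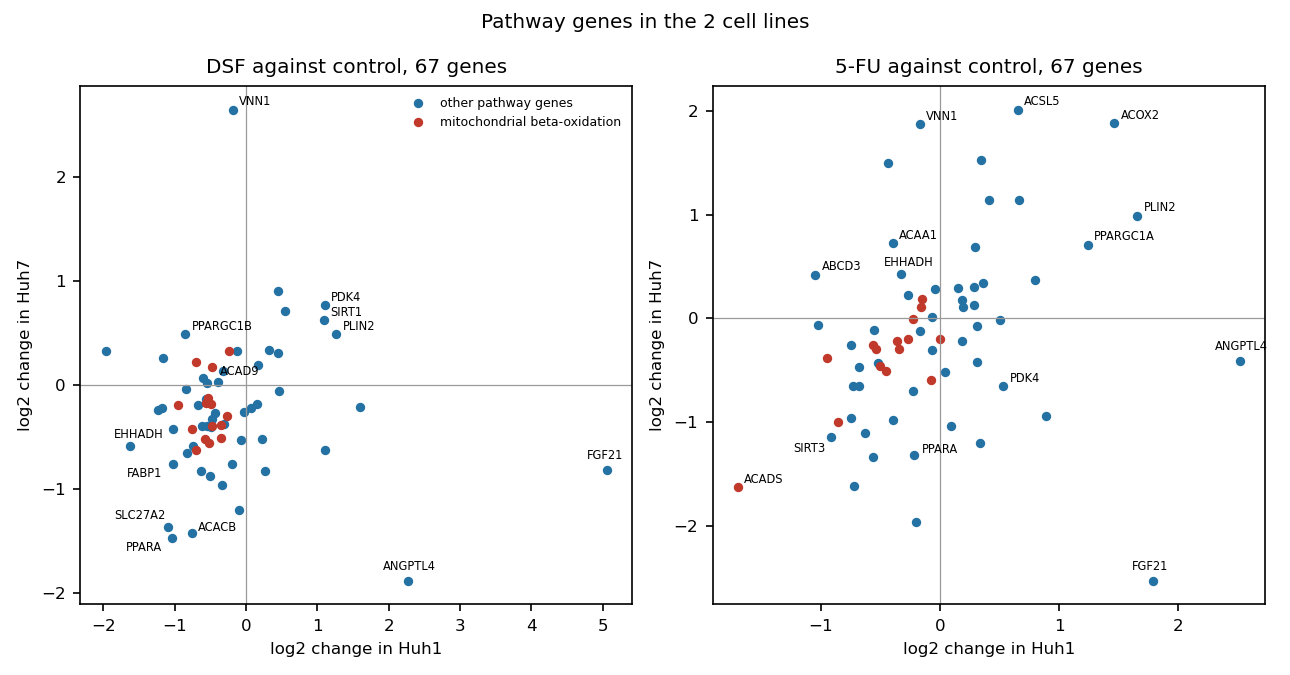
Log2 change against control in Huh1 (x axis) and Huh7 (y axis) of the 67 tested pathway genes after DSF (left) and 5-FU (right); each point is a gene, red points are mitochondrial beta-oxidation genes. With DSF most red points lie below and left of 0, and FGF21 and ANGPTL4 lie at the lower right in both panels.

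Of ketone body metabolism, 3 genes are described. ACAT1, the mitochondrial acetoacetyl-CoA thiolase, read 4.57, 4.64 and 4.63 in Huh1 controls, 4.07, 3.99 and 4.12 after DSF and 4.27, 3.96 and 3.92 after 5-FU. Its Huh7 arrays read 3.77, 3.73 and 3.80 in controls, 3.59, 3.30 and 3.25 after DSF and 2.36, 2.56 and 2.39 after 5-FU. All drug arrays lay below the controls of their line. ACAT1 fell with DSF by 0.55 and 0.39 in Huh1 and Huh7 (SE 0.10, adjusted p = 4.45e-04 and 0.00573) and with 5-FU by 0.56 and 1.33 (adjusted p = 3.65e-04 and 5.87e-08). The Huh7 DSF change was -0.18 with the slide as a block (adjusted p = 0.319). With spike-in scaling the 5-FU change turned to 0.27 in Huh1 and was -0.35 in Huh7 (adjusted p = 0.0647). BDH1, which interconverts the main ketone bodies, read 1.02, 1.08 and 1.17 in Huh1 controls, -0.77, -0.91 and -0.96 after DSF and 1.46, 0.22 and 0.28 after 5-FU. It fell there with DSF by 1.97 (adjusted p = 8.16e-05), while its 5-FU change of -0.43 did not pass (adjusted p = 0.243) and was -0.84 (adjusted p = 0.00832) without 5-FU replicate 1, which lay above the controls. BDH1 was not well above background on any Huh7 array. OXCT1, the enzyme of ketone body use, was well above background on 1 of 9 Huh1 arrays and on all Huh7 arrays, where its changes of -0.52 with DSF and -1.103 with 5-FU did not pass (adjusted p = 0.416 and 0.0748). The fit estimates 1 spread for all groups, so the dim Huh1 arrays also enter these p-values. In Huh1 the DSF change of OXCT1 ranged from -0.19 to 1.04 with 1 array left out.

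**Figure D4:**
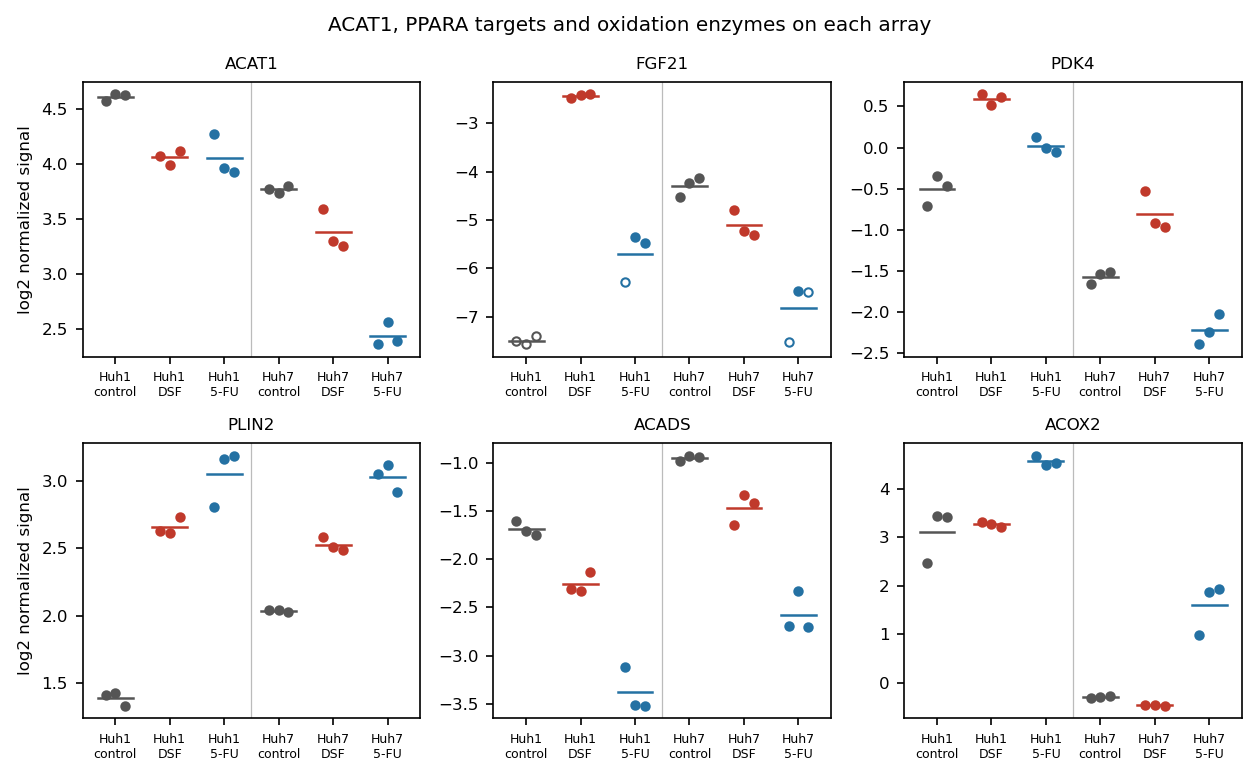
Log2 normalised signal (y axis) of 6 pathway genes on each array by group (x axis); bars are group means, and open points are arrays on which the probe was not well above background. ACAT1 lay below the controls with both drugs in both lines (for 5-FU in Huh1 on this scaling only), FGF21 went up with both drugs in Huh1 and down in Huh7, and ACADS lay lowest after 5-FU.

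Target genes of PPARA moved in both directions. Of 10 tested, members included, 4 rose and 2 fell with DSF in Huh1 and 3 rose and 5 fell in Huh7. With 5-FU 4 rose and 1 fell in Huh1 and 4 rose and 5 fell in Huh7. The shares of all probes that passed were 44.2% and 46.7% for DSF and 48.2% and 57.1% for 5-FU, in Huh1 and Huh7. Scaled to the spike-in probes, 7 rose and 0 fell with 5-FU in Huh1, and 6 rose and 1 fell in Huh7. Of all probes that passed with that scaling, 22339 of 22706 were higher in Huh1 and 22962 of 23997 in Huh7. FGF21, a fasting hormone of the liver, was not well above background on any Huh1 control array and was at least 17.0-fold higher after DSF there (adjusted p = 6.16e-09) and at least 1.75-fold higher after 5-FU, where 2 of 3 arrays were above background. In Huh7 FGF21 fell by 0.81 with DSF (adjusted p = 0.0249) and by 2.53 with 5-FU (adjusted p = 2.06e-06), with 1 of 3 5-FU arrays above background. The DSF fall was -0.49 with the slide as a block (adjusted p = 0.407) and did not pass without any 1 of Huh7 control replicates 2 and 3 or DSF replicates 2 and 3 (adjusted p = 0.0654 to 0.0894). PDK4, the kinase that shuts off pyruvate dehydrogenase, rose with DSF by 1.103 in Huh1 and 0.77 in Huh7 (adjusted p = 7.58e-06 and 2.02e-04), and with 5-FU rose by 0.53 in Huh1 (adjusted p = 0.00293) and fell by 0.65 in Huh7 (adjusted p = 4.74e-04). That fall turned to 0.34 with spike-in scaling. PLIN2, a coat protein of lipid droplets, rose in all 4 comparisons, by 1.27 and 0.49 with DSF (adjusted p = 8.95e-08 and 4.6e-04) and by 1.66 and 0.99 with 5-FU (adjusted p = 1.6e-08 and 3.31e-07). With spike-in scaling its DSF rise in Huh7 was 0.32 (adjusted p = 0.138). FABP1, the liver fatty acid-binding protein, fell with DSF by 1.02 and 0.76 (adjusted p = 7.59e-06 and 1.13e-04). VNN1, a pantetheinase named after its values were seen, rose in Huh7 by 2.65 with DSF (adjusted p = 8.59e-11) and 1.87 with 5-FU (adjusted p = 1.01e-09), and changed by -0.18 and -0.17 in Huh1 (adjusted p = 0.124 and 0.142).

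Other pathway genes that moved the same way in both lines with DSF were SLC27A2, a very-long-chain acyl-CoA synthetase, which fell by 1.09 and 1.37, ACACB, which makes the malonyl-CoA that restrains CPT1A and fell by 0.75 and 1.42, and the deacetylase SIRT1, which rose by 1.096 and 0.62. With spike-in scaling the SIRT1 rise in Huh7 was 0.45 and did not pass (adjusted p = 0.0817). Opposite ways were taken by PPARGC1B, a coactivator, at -0.85 in Huh1 and 0.49 in Huh7, and by the dehydrogenase ACAD9, at -0.48 and 0.17, the latter at -0.002 with spike-in scaling. PPARGC1B in Huh7 was 0.32 with that scaling (adjusted p = 0.0943), and ACAD9 in Huh7 did not pass without any 1 control array or DSF replicate 1 or 2 (adjusted p = 0.0567 to 0.123). With 5-FU, ACOX2, a peroxisomal oxidase, rose by 1.46 and 1.89 and ACSL5, an acyl-CoA synthetase, by 0.65 and 2.01, while ACADS, the short-chain dehydrogenase, fell by 1.69 and 1.63 and the mitochondrial deacetylase SIRT3 by 0.92 and 1.15. SIRT3 stood at -0.09 and -0.16 with spike-in scaling and passed in neither line. PPARGC1A, a coactivator of PPARA, rose by 1.24 in Huh1 (2 of 3 control arrays above background) and by 0.71 in Huh7 (adjusted p = 0.0257). The Huh7 value was -0.04 with normexp background correction and did not pass without any 1 of control replicate 2 or 5-FU replicates 1 and 3 (adjusted p = 0.0557 to 0.141). The peroxisomal transporter ABCD3 changed by -1.04 in Huh1 and 0.42 in Huh7 and the thiolase ACAA1 by -0.39 and 0.73, with the Huh1 values at -0.22 and 0.43 with spike-in scaling.

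**Figure D5:**
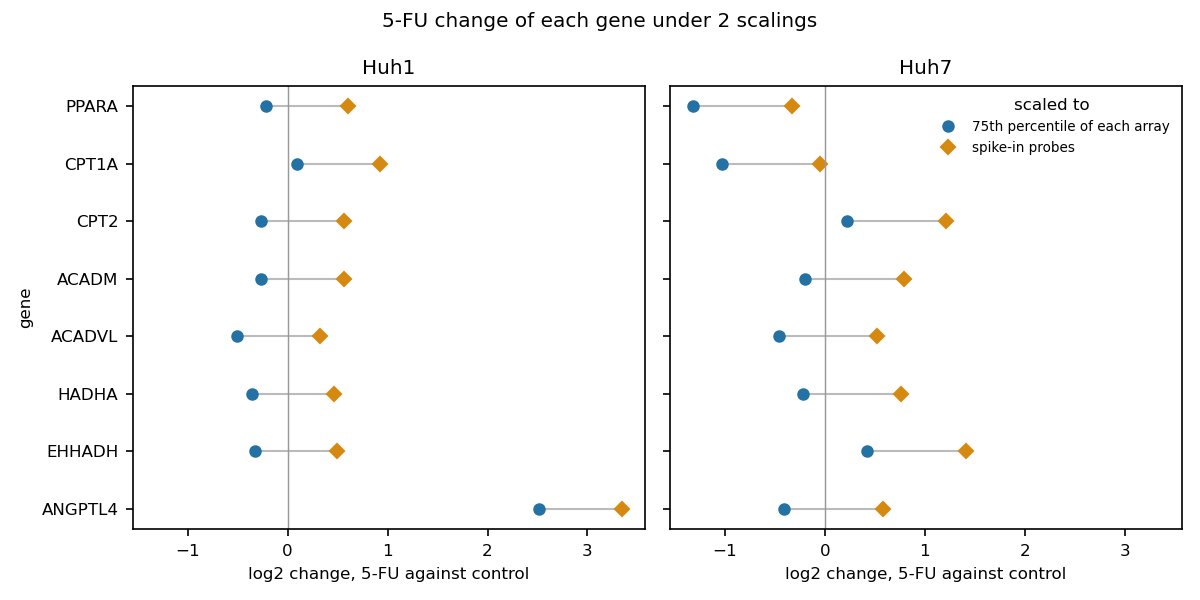
Log2 change after 5-FU against control (x axis) of each gene (y axis) in Huh1 (left) and Huh7 (right), with arrays scaled to their 75th percentile (circles) or to spike-in probes (diamonds). Both scalings subtract a constant per array, so with spike-in scaling every gene of a line shifts to the right by the same amount. With that shift, 6 genes in Huh1 and 4 in Huh7 change sign.

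Over the 18 arrays, the genes most like each of the 8 were found by Pearson correlation among 15851 other tested genes. The arrays fall into 6 groups, so these values describe mainly the group means and carry no test. CPT2 was most like KLB, the co-receptor of FGF21 (r = 0.995), and DACT2 (0.994), and ACADVL was most like the haptoglobin gene HP and its near-identical relative HPR (both 0.993), whose probes may share signal. PPARA was most like HYKK (0.981) and TBC1D1 (0.979), HADHA like ACY1 (0.978) and NME4 (0.965), and CPT1A like EIF2S2 and SNHG29 (both 0.961). ACADM was most like PID1 and FABP1 (both 0.952), EHHADH like ICAM3 (0.95), and ANGPTL4 like DOK7 (0.955) and ISG20 (0.942).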

How the data were processed

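EpCAM+ cells of Huh1 and Huh7 were profiled on 18 one-colour Agilent arrays, 3 per group, with groups taken from the sample labels. Processed spot intensity, background-subtracted and spatially detrended within each array, was deposited as the output of Feature Extraction (version 10.7.1.1 per the file headers), together with a table of normalised intensity made in GeneSpring, which entered only as an alternative. Here, the log2 intensities of a probe's spots without outlier flags were averaged and the array's 75th percentile (10.10 to 10.84) was subtracted. Of 42405 probes, 78 without an unflagged spot on some array were left out, 316 to 447 spots per array were flagged and 0 were saturated. A probe entered the test if some group had it well above background on its 3 arrays each (29894 probes). Names came from RefSeq accessions (25736 of 42405 probes). A gene was read by its brightest tested probe.

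All arrays entered 1 limma fit (limma 3.58.1, R 4.3.3) of 6 groups, two-sided, with Benjamini-Hochberg adjustment over all tested probes at 0.05. The fit was tested on simulated data. The number of arrays limits the precision. The 8 genes and all lists were chosen with earlier results of these data known. Genes named from the lists were ketone body genes and, per drug, up to 6 passing in both lines the same way and up to 4 in opposite ways, by mean absolute change, with HADHB and VNN1 added after their values were seen. Some genes these rules name are not reported here and were left out of the lists. Where a group had no array well above background, a bound is given from the lowest signal well above background on each array. Alternatives were normexp correction (offset 50, on median spot signal, since the files used here have no mean signal column), quantile, median and spike-in scaling, other probe filters, the deposited table, the mean of a gene's probes, fits of the compared groups alone, trended and robust variance, slide and replicate blocks, within-slide values and leaving out each array. Figures were drawn in matplotlib 3.10.9.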

Additional observations from a re-analysis of the deposited data

Results flagged for a closer look

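Each of the following passed limma's test of the difference between the drug effects in the lines, Huh7 minus Huh1, on the log2 scale. With DSF the differences were -0.44 for PPARA (adjusted p = 0.0198), 0.30 for ACADM (0.0343), 0.48 for CPT2 (0.00595), 1.03 for EHHADH (0.00426) and -4.15 for ANGPTL4 (1.41e-09). Those of PPARA, ACADM and EHHADH did not pass with the slide as a block, nor did those of ACADM and CPT2 with spike-in scaling. With 5-FU they were -1.09 for PPARA (3.18e-05), 0.49 for CPT2 (0.00561), 0.76 for EHHADH (0.0264), -1.13 for CPT1A (1.22e-05) and -2.92 for ANGPTL4 (6.1e-08). All 3 ANGPTL4 arrays of each drug group were above the controls in Huh1 and below them in Huh7, the latter for 5-FU with the 75th percentile scaling only.

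Among the other pathway genes, differences with DSF were 0.65 for ACAD9 (adjusted p = 6.1e-05, but 0.34 and 0.175 with spike-in scaling), 1.34 for PPARGC1B (3.92e-07), -5.88 for FGF21 (1.18e-07) and 2.83 for VNN1 (3.87e-09). With 5-FU they were 1.12 for ACAA1 (1.22e-05), 1.47 for ABCD3 (2.73e-06), -1.18 for PDK4 (1.51e-04), -4.31 for FGF21 (1.89e-06) and 2.04 for VNN1 (1.07e-07). The FGF21 differences rest on Huh1 controls not well above background, and are given as fitted values, not bounds.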

How the results depend on the processing

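Over 1783 recomputed changes of the 8 genes and the named pathway genes under alternatives other than leaving out an array, 1636 kept direction and side of the threshold, 75 lost the call, 24 gained one and 48 changed sign. Of 984 with 1 array left out, 909 kept both. The deposited table changed none of 139. The cause of the changes named here was not tested.

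With spike-in scaling, 5-FU changes turned in Huh1 to 0.60 for PPARA, 0.56 for CPT2, 0.56 for ACADM, 0.32 for ACADVL, 0.47 for HADHA, 0.50 for EHHADH, 0.43 for ACAA1, 0.39 for BDH1, 0.27 for ACAT1, 0.20 for OXCT1, 0.49 for HADHB and 0.66 for VNN1, and in Huh7 to 0.79 for ACADM, 0.53 for ACADVL, 0.77 for HADHA, 0.58 for ANGPTL4, 0.34 for PDK4 and 0.69 for HADHB. DSF against 5-FU turned to -0.34 for CPT1A and -0.54 for ACADVL in Huh1, and to -1.15 for ACADM and -1.09 for ACADVL in Huh7. ACAD9 with DSF in Huh7 became -0.0019, and the line difference of DSF became -0.0058 for ACADM and -0.22 for HADHA. Counts that passed became 8 of the 8 genes for DSF against 5-FU in Huh1 (7 in Huh7), 3 of 8 and 16 pathway genes for the line difference of DSF and 15 pathway genes for that of 5-FU. Of all tested probes, 20107 and 25022 passed for DSF against 5-FU in Huh1 and Huh7. For the line differences 8369 (DSF) and 6886 (5-FU) did.

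Of all tested probes, 8548 passed for DSF in Huh7 and 8695 for the line difference of DSF with the slide as a block. With that block, 3 of 8 genes and 22 pathway genes passed for DSF in Huh7 and 2 of 8 for the line difference of DSF. Within slides these were 3, 21 and 2, with 5 for 5-FU in Huh7 and 3 for DSF against 5-FU in Huh7. Under both, BDH1 with DSF in Huh7 became -0.21, ACADM for DSF against 5-FU in Huh7 -0.016 and ACADVL for the line difference of DSF 0.0075. For 5-FU in Huh7 the count was 5 with median scaling, 5 without a filter on dim probes and 5 to 6 with 1 array left out.

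With normexp correction the called 5-FU rises in Huh7 of BDH1 (1.497, not well above background) and PPARGC1A (0.71) turned to -0.26 and -0.040. Uncalled changes turned to -0.065 for OXCT1 (DSF, Huh1), -0.18 for BDH1 (DSF, Huh7), -0.020 for ACADM (DSF against 5-FU, Huh7) and 0.017 for ACADVL (line difference of DSF). With quantile scaling ACADVL became -0.070 and -0.087 for DSF against 5-FU in Huh1 and Huh7 and -0.17 for the line difference of 5-FU, ACADM -0.0082 for DSF against 5-FU in Huh7, HADHA -0.016 for the line difference of DSF and VNN1 0.10 for 5-FU in Huh1. With median scaling ACADM became -0.040 for DSF against 5-FU in Huh7 and -0.0065 for the untreated lines, and CPT1A 0.013 and ACADVL 0.11 for the line difference of DSF. The mean of both probes gave 0.23 for PPARA with 5-FU in Huh1.

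With 1 array left out, values ranged from -0.19 to 1.04 for OXCT1 with DSF in Huh1, and from -1.04 to 0.19 for OXCT1 with 5-FU in Huh1. They ranged from -0.020 to 0.14 for ACADM and -0.041 to 0.18 for ACADVL for the line difference of 5-FU, and from -0.060 to 0.10 for ACADM for DSF against 5-FU in Huh7. Without Huh1 5-FU replicate 1, the line difference of 5-FU passed for ACADVL and for HADHA (0.22, adjusted p = 0.0431), and DSF against 5-FU in Huh1 passed for ACADVL (0.30, adjusted p = 3.04e-04) and ANGPTL4 (-0.35, adjusted p = 0.0363). Without it BDH1 also fell with 5-FU in Huh1 (-0.84, adjusted p = 0.00832). With spike-in scaling the DSF falls in Huh1 of ACAD9, ACAT1 and HADHB did not pass (adjusted p = 0.0516, 0.0661 and 0.382).

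Replicate numbers did not pair the arrays, since deviations of same-numbered arrays correlated at -0.093 to 0.024 over 21 pairs. With the replicate block, HADHA for DSF against 5-FU in Huh7 (-0.17, adjusted p = 0.0576) and ACAD9 with DSF in Huh7 (0.17, adjusted p = 0.0554) lost their calls and no other call among those recomputed changed.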
